A study of Mus musculus with 2 samples.

Results

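Most microRNAs (miRNAs) are cut from long hairpin transcripts by Drosha with DGCR8 in the nucleus and then by Dicer in the cytoplasm. A few reach the Argonaute proteins by other routes, and 8 such genes are described here: the mirtrons Mir877, Mir1224, Mir1981 and Mir702, the capped hairpins Mir320 and Mir484, the small nucleolar RNA (snoRNA) derived Mir1839, and Mir451a. A mirtron is a short intron whose own ends, set free by splicing and debranching, form the hairpin, so that Drosha is not needed. A capped hairpin starts at the first base of its transcript and carries the cap of RNA polymerase II. A snoRNA-derived miRNA is cut by Dicer out of a longer guide RNA of the nucleolus or Cajal body, and the stem of Mir451a is too short for Dicer and is cut by Argonaute 2. The members are the rows whose identifier carries one of these symbols and is of the miRNA type in GENCODE M21, and they are 8 of the 2202 miRNA genes in the tables.

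The RNA came from left cerebral cortex of B6CASTF1/J mice, the first-generation hybrid of C57BL/6J and CAST/EiJ, aged 18 to 20 months, with no treatment named. There is 1 group of 2 libraries of RNA below 30 nt, numbered as biological replicates but tied to a single donor record, so the spread between them may be partly technical. The sample fields and the free text of the labels differ on the sex of the mice, and sex was not used. No young, treated or mutant cortex was measured, so levels are compared between genes and between the libraries.

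Replicate 1 held 2381663 reads on the strand of a miRNA gene and replicate 2 held 4436398. Levels are CPM, the count of a gene scaled to a library of 1000000 such reads, and a count of 0 allows up to 1.26 CPM in replicate 1 and 0.676 CPM in replicate 2, for counting error only. All 11 loci of a neuron and cortex list had reads and summed to 90362 CPM in replicate 1 and 71516 CPM in replicate 2. Most of this was Mir132, at 69646 and 43349 CPM in replicates 1 and 2, and Mir128-1, at 14354 and 19064 CPM. The defining neuronal loci were low: each of the 3 Mir124a loci had at most 4 reads, and the 3 Mir9 loci lay between 1.13 and 52.1 CPM. The Mir124a loci share their mature sequence, as do the Mir9 loci. Multimapping reads, 35.6% of all reads in replicate 1 and 44.8% in replicate 2, stand under no gene. The low counts at these loci therefore do not measure the level of the shared miRNAs. The hepatocyte miRNA Mir122 stood at 58.4 and 75.96 CPM in replicates 1 and 2. A muscle list of 7 loci summed to 17.2 and 20.5 CPM, with 4 of the 7 at 0. Multimapping reads are missing there too, so a count of 0 at a locus does not show that its miRNA was absent.

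The sequences of 7 members were matched in the RefSeq table (build GRCm38.p6), all but Mir320. The hairpins of the mirtrons are shown because their ends are intron ends, and the capitals mark the first and last 2 bases of the host intron wherever these lie inside the hairpin.
Mir877: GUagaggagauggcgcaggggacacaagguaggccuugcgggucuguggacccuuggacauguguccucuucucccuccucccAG
Mir1224: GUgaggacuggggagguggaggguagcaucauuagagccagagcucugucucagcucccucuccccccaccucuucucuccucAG
Mir1981: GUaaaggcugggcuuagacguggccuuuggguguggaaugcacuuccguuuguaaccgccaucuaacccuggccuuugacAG
Mir702: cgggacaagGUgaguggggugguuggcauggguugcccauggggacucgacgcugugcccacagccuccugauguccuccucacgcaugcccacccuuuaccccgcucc

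Mir877, Mir1224 and Mir1981 were each identical to an annotated intron of their host gene, from the first base to the last. Mir877 (ENSMUSG00000077931.1, chr17:35960730-35960814, minus strand, mm10) is an intron of 85 bases of Abcf1, which codes for a factor of translation initiation. Mir1224 (ENSMUSG00000080669.1, chr16:20604452-20604536, plus strand) is an intron of 85 bases of Vwa5b2. Mir1981 (ENSMUSG00000088559.1, chr1:184822407-184822488, minus strand) is an intron of 82 bases of Marc2, a mitochondrial reductase gene. Mir702 (ENSMUSG00000076240.1, chr5:136991433-136991541, plus strand) departed from this pattern: its hairpin of 109 bases began with 9 exonic bases of Plod3, a lysyl hydroxylase gene of collagen, and stopped 2 bases before the end of an intron of 102 bases. Of 1005 RefSeq hairpins, 30 (2.99%) began with GU and ended with AG, and 3 of these 30 were members.

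The mature arms are shown with the seed, bases 2 to 8, in capitals, because the seed is the part that pairs with target transcripts.
mmu-miR-877-5p: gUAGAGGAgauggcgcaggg
mmu-miR-877-3p: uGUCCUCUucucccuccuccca
mmu-miR-1224-5p: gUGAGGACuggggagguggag
mmu-miR-1224-3p: cCCCACCUcuucucuccucag
mmu-miR-1981-5p: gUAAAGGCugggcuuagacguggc
mmu-miR-1981-3p: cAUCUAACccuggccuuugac
mmu-miR-702-5p: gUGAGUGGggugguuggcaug
mmu-miR-702-3p: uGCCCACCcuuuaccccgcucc
mmu-miR-484: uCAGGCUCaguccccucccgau
mmu-miR-1839-5p: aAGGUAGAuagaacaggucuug
mmu-miR-451a: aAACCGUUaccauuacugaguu

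No 2 of these 11 arms shared a seed, and none shared its seed with an arm of another gene among the 1635 RefSeq arms placed in a hairpin. The 4 mirtron 5p arms all began with G, the first base of the intron, whereas 12.4% of all arms began with G and 41.3% with U. The mirtron 3p arms were rich in pyrimidines, as the end of an intron is: 90.9% of the bases of miR-877-3p, 85.7% of miR-1224-3p, 81.8% of miR-702-3p and 66.7% of miR-1981-3p were C or U. The median over 822 arms on the 3p side was 57.1%, and 30.3% of them reached the value of miR-1981-3p, so that arm was not extreme. The deposited counts are per hairpin and do not tell which arm the reads came from.

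**Figure D1:**
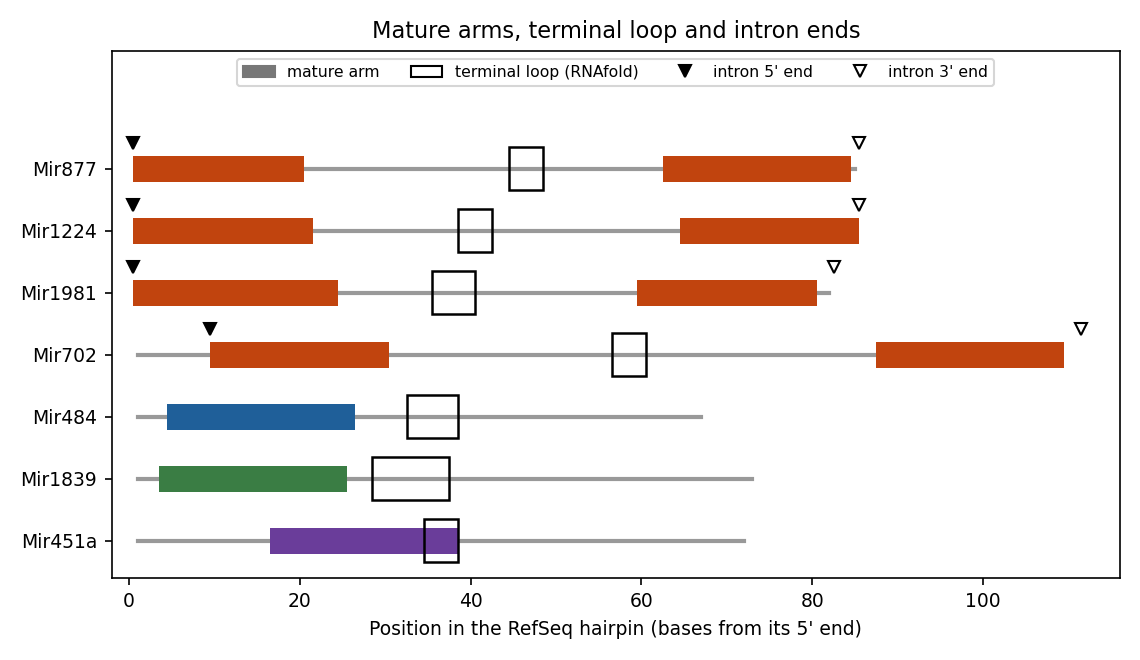
Position of the mature arms (filled bars) and of the terminal loop predicted by RNAfold (open boxes) along the RefSeq hairpins of 7 members, in bases from the 5' end, with triangles at the ends of the host intron for the mirtrons. The 5p arm of each mirtron starts at the intron's 5' end, while the arm of Mir451a, bases 17 to 38, covers all 4 bases of the loop.

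Mir451a (ENSMUSG00000070065.1, chr11:78073170-78073241, plus strand) is shown as a whole hairpin because its mature arm, in capitals, runs from the stem into the loop.
Mir451a: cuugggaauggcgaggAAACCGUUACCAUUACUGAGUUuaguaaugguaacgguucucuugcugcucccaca

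In the RNAfold prediction the loop of Mir451a held bases 35 to 38, all inside the mature arm. The whole hairpin of 72 bases had 30 base pairs with a minimum free energy of -0.60 kcal/mol per base. This count includes pairs outside the mature arm, so it is not the length of the short stem that Dicer would meet. Only 1.71% of the 1635 arms had 3 or more bases in a terminal loop and 95.9% had none, as had the 10 arms of the other 6 matched members. The median hairpin had 28 pairs and -0.41 kcal/mol per base. Mir1839 had 18 pairs and -0.30 kcal/mol per base, and Mir484 had 18 pairs and -0.37 kcal/mol per base.

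All 8 genes were detected, with at least 10 reads in each library, as had 367 of the 2202 annotated genes. Together they held 14365 reads in replicate 1, or 0.603% of its reads on the strand of a miRNA gene (95% exact binomial interval 0.593 to 0.613). In replicate 2 they held 28089 reads, or 0.633% (0.626 to 0.641). Multimapping reads, 35.6% of all reads in replicate 1 and 44.8% in replicate 2, are in neither the counts nor the totals. Their summed level was 6032 CPM in replicate 1 and 6331 CPM in replicate 2, a mean of 6181 ± 212 CPM (SD, n = 2). The median of their mean levels was 524 CPM, against 40.6 CPM over the 472 genes with at least 10 reads in total, and 7 of the 8 lay above that median. Genes whose mature sequence has copies elsewhere can lose reads to multimapping, so this contrast covers uniquely mapped reads only. In bulk tissue, fewer cells of a type and less RNA per cell cannot be told apart.

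The mirtrons together stood at 1239 and 1849 CPM in replicates 1 and 2, a mean of 1544 ± 431 CPM (SD, n = 2). They made up 20.5% of the reads of the 8 genes in replicate 1 and 29.2% in replicate 2. Mir1981 was the highest of them in replicate 1 and Mir1224 in replicate 2, so no mirtron led in both libraries.

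Mir1981 had 1183 reads in replicate 1 and 2636 in replicate 2, which are 497 and 594 CPM. Mir1224 had 843 and 2894 reads in replicates 1 and 2, which are 354 and 652 CPM. Their ranges overlapped, and with means of 545 ± 68.9 and 503 ± 211 CPM (SD, n = 2) the order of the pair could not be told from the spread.

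Mir877 had 680 reads in replicate 1 and 1601 in replicate 2, which are 286 and 361 CPM, with a mean of 323 ± 53.3 CPM. Its value in replicate 2 just passed that of Mir1224 in replicate 1, so the ranges of these neighbours overlapped too. Within each library, though, Mir1224 was the higher of the pair. Mir702, whose hairpin is not a whole intron, was the lowest mirtron in both libraries, with 244 reads in replicate 1 and 1070 in replicate 2, which are 102 and 241 CPM. Its mean of 172 ± 98.1 CPM had the widest relative spread of the 8 genes, a coefficient of variation of 57.1%.

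The capped hairpins were among the 3 highest members. Mir320 (ENSMUSG00000065528.1, chr14:70443510-70443591, plus strand) lay in no annotated host, 63 bases from a transcript start of Polr3d, a subunit gene of RNA polymerase III that runs the other way. Mir320 led the 8 genes in both libraries, with 5209 reads in replicate 1 and 8683 in replicate 2, which are 2187 and 1957 CPM (mean 2072 ± 163 CPM). By uniquely mapped reads it ranked number 64 of the 728 genes with a read.

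Mir484 (ENSMUSG00000070074.1, chr16:14159626-14159692, plus strand) lay 359 bases from a transcript start of Marf1, which runs on the opposite strand and overlaps the hairpin. MiR-484 has been reported to repress Fis1, a gene of mitochondrial fission, in heart muscle cells. Mir484 had 1843 reads in replicate 1 and 4782 in replicate 2, which are 774 and 1078 CPM (mean 926 ± 215 CPM). Mir320 exceeded Mir484 by 2.83 times in replicate 1 and 1.82 times in replicate 2, and their ranges did not overlap. Their sum was nearly the same in both libraries, 2961 CPM in replicate 1 and 3035 CPM in replicate 2, while the 2 genes differed between the libraries in opposite directions.

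Mir1839 (ENSMUSG00000104618.1, chr7:81529916-81529988, plus strand) shares 66 of its 73 bases with a small Cajal body RNA of the same symbol, a separate annotated gene that is not counted in the tables, and both lie in the noncoding gene 2900076A07Rik. Mir1839 had 4244 reads in replicate 1 and 6323 in replicate 2, which are 1782 and 1425 CPM (mean 1604 ± 252 CPM). It stood second to Mir320 in both libraries, and the ranges of the 2 genes did not overlap. Bases 24 to 43 of its hairpin also occur in an annotated transcript of Gata4, while the mature arm covers bases 4 to 25, so a read of the arm cannot match that copy over its whole length. No other member shared a word of 20 bases with a transcript of a gene elsewhere. Whether reads were cut from the longer RNA by Dicer or are its breakdown products cannot be told apart from counts per hairpin.

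Mir451a, abundant in red blood cells, where it represses Ywhaz, was the lowest of the 8. It had 119 reads in replicate 1 and 100 in replicate 2, which are 49.97 and 22.5 CPM (mean 36.3 ± 19.4 CPM). Mir320 exceeded it 43.8 times in replicate 1 and 86.8 times in replicate 2. Mir144 ends 99 bases upstream of Mir451a on the same strand. It had 49 reads in replicate 1 and 77 in replicate 2, which are 20.6 and 17.4 CPM. Mir451a thus exceeded Mir144 by 2.43 times in replicate 1 and 1.30 times in replicate 2. Mir451b covers the same bases on the minus strand and had no read on its own strand in either library.

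**Figure D2:**
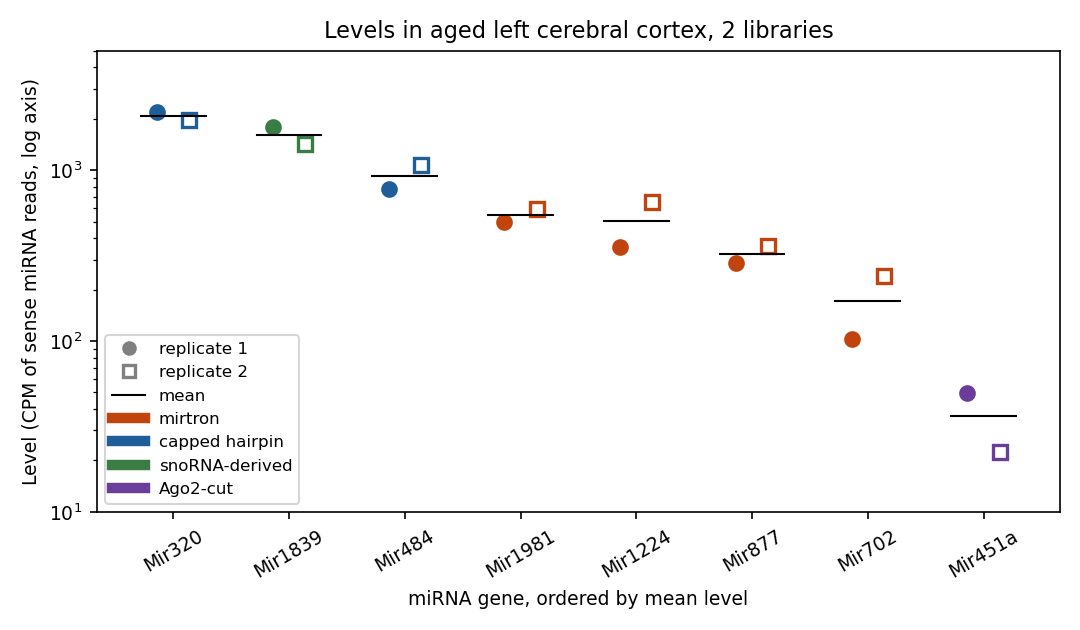
Level of each of the 8 genes in CPM on a log axis, in order of mean level, with filled circles for replicate 1, open squares for replicate 2, a bar at the mean and colours for the route of biogenesis. Mir320 is the highest and Mir451a the lowest in both libraries, and the 4 mirtrons lie lower in replicate 1 than in replicate 2.

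The order of mean levels was Mir320, Mir1839, Mir484, Mir1981, Mir1224, Mir877, Mir702 and Mir451a. Of the 7 neighbouring steps in this order, the libraries' ranges overlapped at 2, Mir1981 with Mir1224 and Mir1224 with Mir877. Only Mir1981 and Mir1224 changed order between the libraries. Reads of a miRNA come from arms of similar length, so levels are per hairpin, and the order was the same when they were divided by hairpin length, which ran from 67 to 109 bases.

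The libraries differed at every one of the 8 genes by more than counting noise, and the mirtrons all lay on one side. The reads of each gene were set against TMM library sizes in a two-sided exact binomial test, and p-values were adjusted over 472 genes by the Benjamini-Hochberg method. This test compares the libraries, not conditions, and it takes in no spread between replicates. It called 8 of the 8 members, against a background of 52.1% of all tested genes. The members are abundant, though, and of the 201 tested genes with a mean of at least 100 CPM it called 89.6%, so a count of 8 says little about these genes.

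The 4 mirtrons and Mir484 were called lower in replicate 1 (background in that direction 27.5%), and Mir320, Mir1839 and Mir451a higher (background 24.6%). These backgrounds are over all 472 tested genes. Among the 201 genes of at least 100 CPM, which hold every member but Mir451a, 89.6% were called in either direction. The share in each direction at that level was not taken. Mir702 differed most among the mirtrons, with a log2 ratio of replicate 1 over replicate 2 of -1.21 ± 0.10 (counting SE, exact binomial adjusted p = 1.3e-36). Mir1224 had a log2 ratio of -0.85 ± 0.06 (exact binomial adjusted p = 4.8e-56). Mir877 at -0.31 ± 0.07 and Mir1981 at -0.23 ± 0.05 differed least of the 4, with exact binomial adjusted p-values of 6e-06 and 1.2e-05.

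Mir484 had a log2 ratio of -0.45 ± 0.04 (exact binomial adjusted p = 1.4e-30), while Mir320 stood at 0.19 ± 0.03 (exact binomial adjusted p = 5.6e-13) and Mir1839 at 0.35 ± 0.03 (exact binomial adjusted p = 4.5e-33). The ratio of Mir451a, 1.18 ± 0.20 (exact binomial adjusted p = 7.1e-09), was of the size of that of Mir702 with the opposite sign. The median ratio was -0.58 over the 4 mirtrons and -0.27 over the 8 genes, against -0.07 over all tested genes. The median absolute ratio was 0.40 for the 8 genes and 0.47 for all tested genes. It was 0.41 for the 201 genes of at least 100 CPM, which hold every member but Mir451a. The difference between the libraries was thus about as wide for the 8 genes as for genes of that level.

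Whether the members differ by more than replicates usually do could not be tested, since each side holds 1 library. An edgeR exact test took its common dispersion (as a coefficient of variation, 0.351) from the same pair of libraries that it compares, so few calls were possible. It called 0 of the 8, against 0.424% (2) of the 472 genes, and 0 of the 8 had an unadjusted p below 0.05, against 28 of the 472. Its smallest unadjusted p among the members was 0.106, for Mir702. Over the 367 genes that reached 10 reads in both libraries, the common coefficient of variation between the libraries was 0.343.

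**Figure D3:**
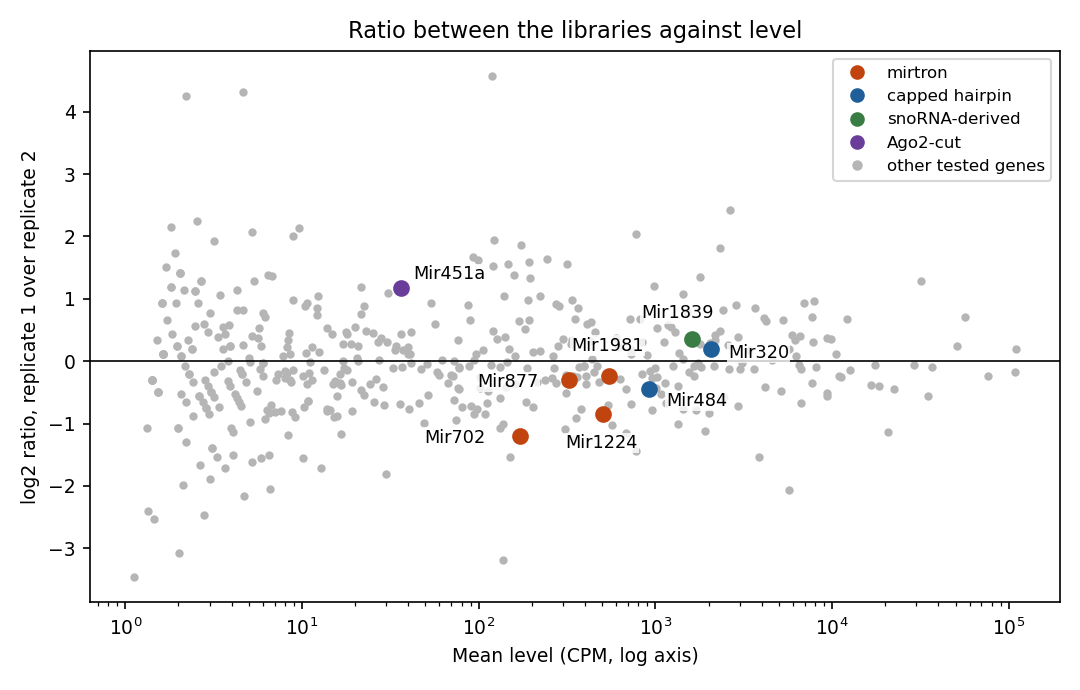
Log2 ratio of replicate 1 over replicate 2 (TMM-scaled reads, with 0.5 reads added to both counts where a library had none) against mean CPM on a log axis for 472 tested genes, members coloured by route. The 4 mirtrons and Mir484 lie below 0 and Mir320, Mir1839 and Mir451a above it, all within the scatter of the other genes.

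Hairpin base composition moved with these ratios. The mirtron hairpins had GC contents of 53.7% (Mir1981), 60% (Mir1224), 61.2% (Mir877) and 65.1% (Mir702), against 37.0% for Mir1839 and 47.2% for Mir451a and a median of 52.9% over the tested genes. Mir484, lower in replicate 1, had 58.2%, but Mir320, higher in replicate 1, had 63.4%, more than 3 of the 4 mirtrons. Across the 472 genes the ratio fell with GC content, with a Spearman rho of -0.31 and a Pearson r of -0.26. Across the 201 genes of at least 100 CPM these were -0.35 and -0.29. The genes share the same 2 libraries, so these values describe them and are no replicated test. Unmapped reads made up 30.8% of replicate 1 and 14.6% of replicate 2. The part of base composition and of library quality in the mirtron ratios was not tested.

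**Figure D4:**
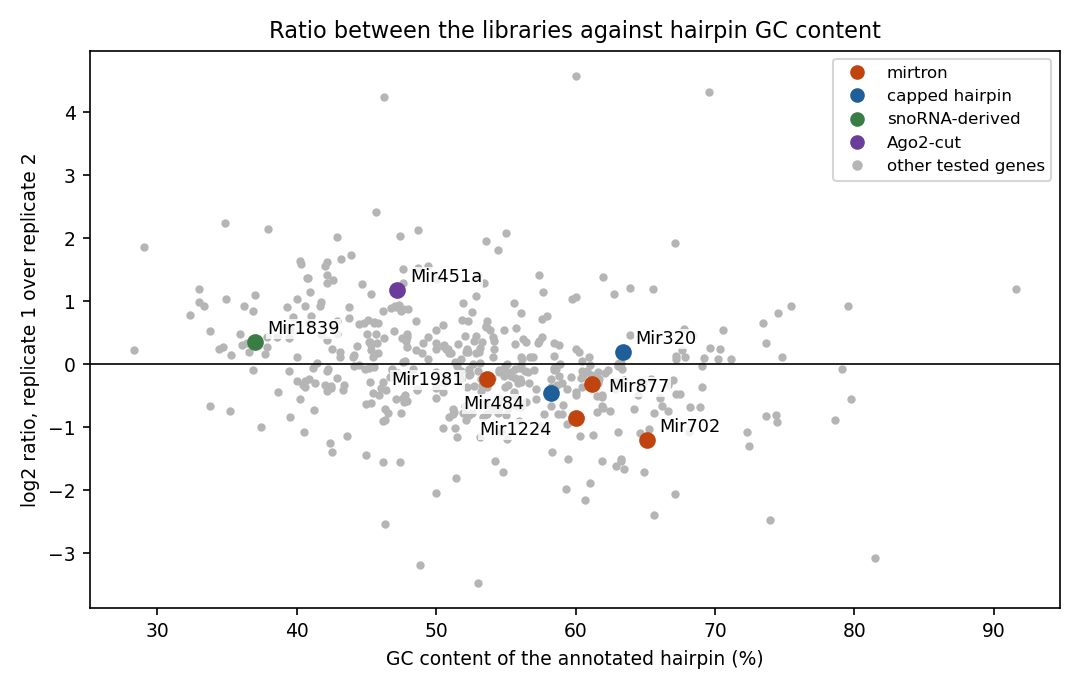
Log2 ratio of replicate 1 over replicate 2 against the GC content of the annotated hairpin in percent for the same 472 genes, members coloured by route. Mir1839 and Mir451a, with GC contents of 37.0% and 47.2%, lie above 0 and the 4 mirtrons, from 53.7% to 65.1%, below it, while Mir320 lies above 0 at 63.4%.

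For Mir451a, the miRNAs of blood cells were set beside the ratio. The other erythroid loci (3 of 4 planned, since Mir486b matched no symbol) summed to 47.9 CPM in replicate 1 and 44.9 CPM in replicate 2. Of these, 0 of 2 tested were called, against 52.1% of all tested genes, with log2 ratios of 0.27 ± 0.26 (counting SE) for Mir144 and 0.02 ± 0.22 for Mir486, and Mir451b was at 0. The other blood list of Mir150, Mir142, Mir155 and Mir223 summed to 1910 CPM in replicate 1 and 1870 CPM in replicate 2, with 1 of 4 called against the same 52.1%. That gene was Mir142, at 149.9 and 49.4 CPM in replicates 1 and 2, a log2 ratio of 1.63 ± 0.12. Mir150 made up most of the sum, at 1701 and 1769 CPM in replicates 1 and 2, with a log2 ratio of -0.03 ± 0.03. The ratios of Mir155 and Mir223 were 0.11 ± 0.18 and 0.54 ± 0.31. Counts from bulk tissue do not tell which cells held these miRNAs, and the part of blood in the Mir451a ratio was not tested.

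By the distance of log2(CPM + 1) over both libraries, the genes most like each member in level were as follows, over 2 samples only. Mir320 lay closest to Mir29c (distance 0.08) and Mir434 (0.13), and Mir1839 to Mir181c (0.10) and Mir708 (0.24). Mir484 lay closest to Mir15a (0.14) and Mir125b-1 (0.17). Among the mirtrons, Mir1981 lay closest to Mir672 (0.28) and Mir1843a (0.30), Mir1224 to Mir3099 (0.21) and Mir346 (0.24), Mir877 to Mir543 (0.08) and Mir30c-2 (0.09), and Mir702 to Mir351 (0.41) and Mir296 (0.44). Mir451a lay closest to Mir582 (0.31) and Mir429 (0.53). Of the 8 genes, Mir702 had the widest gap to its nearest neighbour.

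Other genes of such routes were listed to set the 8 in context, and 3 of the 5 matched a symbol. The exact binomial test called all 3 lower in replicate 1, against 27.5% of all tested genes, with a median log2 ratio of -0.27. Mir664 and Mir1983 lay above 100 CPM, where 89.6% of tested genes were called in either direction, so a count of 3 says little. Mir1983, which derives from a transfer RNA, stood at 310 and 372 CPM in replicates 1 and 2. Mir664, whose hairpin overlaps the snoRNA gene Snora36b, stood at 233 and 286 CPM in replicates 1 and 2, so that Mir1839 exceeded it 7.65 and 4.98 times. Mir1982, identical to an intron of Oaz1, had 5 reads in replicate 1 and 27 in replicate 2, and its call rests on these few reads (exact binomial adjusted p = 0.048).

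In mean level the 4 mirtrons also stood above the predicted entries Mir6896 to Mir7093, of which 14 were identical to an annotated intron. Of these 196 genes, 156 had a read but only 24 had at least 10 in each library. The 196 together summed to 495 CPM in replicate 1 and 681 CPM in replicate 2, less than the 1239 and 1849 CPM of the 4 mirtrons. Their 3 highest were Mir7080, Mir7047 and Mir7044, with means of 89.9, 74.8 and 58.1 CPM, each below the mean of 172 CPM of Mir702, the lowest mirtron. The ranges of Mir7080 (67.2 and 112.7 CPM in replicates 1 and 2) and Mir702 (102 and 241 CPM) overlapped, though Mir702 was higher within each library.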

How the data were processed

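The authors deposited 1 table per library with raw counts of reads for every miRNA gene, made on build mm10 with annotation GENCODE M21 per the notes beside it. The tables have no header, and their columns were read from the layout as the sum of the strands, the strand of the gene and the other strand. Which aligner was run is not given in the sources used here. The strand of the gene was used, and the 4 summary lines stayed out of totals. Multimapping reads, 35.6% of replicate 1 and 44.8% of replicate 2, stand under no gene.

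TMM factors (edgeR 4.0.16, R 4.3.3) over the 472 genes whose reads reached 10 in total were 0.990 and 1.01. The exact binomial test, used because 1 group allows no quasi-likelihood test, had a threshold of 0.05 and was tested on simulated data, as was the dispersion estimate. Intervals cover counting error only. Sequences and arm positions came from RefSeq (GRCm38.p6), which is the base build of mm10, host genes and GC content from GENCODE M21, and folds from RNAfold 2.7.2. Python 3.11.15 with scipy 1.17.1 was used for the rest.

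The members, lists and tests were chosen with earlier results of these data known. Named are the 8 members, the 2 genes nearest each in level, genes that overlap a hairpin or lie within 10 kb, list members and the 3 highest predicted entries. Mir1186 and Mir1186b matched no symbol. Alternatives covered library totals, size factors, read minimums, strand columns and each library alone.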

Additional observations from a re-analysis of the deposited data

How the results depend on the processing

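All 39 alternative log2 ratios of single members kept their sign, and all those with a test kept their call, under RLE factors, library totals, TMM over all genes with a read (chosen after seeing the data), both-strand counts and a pseudocount. A change of size factors shifts every gene by the same amount, so the kept signs show only that each ratio exceeded that shift. The exact binomial test called 8 members under each of these scalings and read minimums, and 7 with both strands counted together, where Mir451a, which Mir451b overlaps on the other strand, stood at 0 CPM. The edgeR exact test called 0, but it sets 1 library against 1 with a dispersion (coefficient of variation 0.351) from that same difference and could give few calls, so it tells nothing about stability. The summed level moved to 2041 CPM with all reads of the library as total and to 6715 CPM with both strands together, and that of the mirtrons to 518 CPM with all reads as total. Of 24 alternative levels of single members that used both libraries, 14 stayed within 1 SD. With 2 libraries, leaving either out moves a mean by less than 1 SD whatever the data. The order kept all 8 places in replicate 1 alone and 6 in replicate 2 alone, where Mir1224 passed Mir1981; dividing by hairpin length, also chosen later, kept all 8. The common coefficient of variation over genes with a minimum in each library was 0.336 at a minimum of 100 reads and 0.346 with RLE factors. RLE factors turned the majority of calls over all genes, with 53.1% higher in replicate 1 against 47.2% under TMM, through that common shift. No paired analysis was possible because there is only 1 group. With 2 libraries, differences between the replicates cannot be assigned to animals, libraries or sequencing.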

Other observations

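The identity of a hairpin with a whole annotated intron was also searched over all miRNA genes, a set chosen after the members' positions were seen. It held 22 genes, 21 of them in a protein-coding host, and 3 of the 22 were the members Mir1981, Mir1224 and Mir877. A read was found for 16 of the 22 and at least 10 reads in each library for 8. Mir3102, an intron of Arhgef17, stood at 324 and 393 CPM in replicates 1 and 2 (mean 358 ± 48.9 CPM, SD, n = 2), between Mir1224 and Mir877.

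Below these came introns of lower level. Mir7080, an intron of Cpne7, stood at 67.2 and 112.7 CPM in replicates 1 and 2. Mir6944, an intron of Dbn1, which codes for the dendritic spine protein drebrin, stood at 29.4 and 51.2 CPM in replicates 1 and 2, and Mir3547, an intron of Baiap3, at 19.7 and 31.6 CPM. With the 3 members left out, 9 whole-intron hairpins had at least 10 reads in total, and the exact binomial test called 5 of them, all 5 lower in replicate 1, against 27.5% of all tested genes in that direction. The 5 include Mir1982, with 5 and 27 reads in replicates 1 and 2, which was also among the 3 other listed genes called lower. Mir3102 lay above 100 CPM, where 89.6% of tested genes were called in either direction. Hairpin GC content of the 5 ran from 59.1% (Mir3547) to 65.6% (Mir6944), above the median of 52.9% over tested genes. The part of base composition was not tested. The set was chosen with the direction of the mirtrons known, so the count of 5 is a description.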
